A study of Mus musculus with 8 samples.

Results

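The single-cell library of sorted mouse small intestine held 93 barcodes in which the genes Slc10a2, Enpp7 and Cubn summed to at least 5 unique molecular identifiers (UMIs, the tags that count RNA molecules). A barcode is the tag of 1 captured cell. They were chosen among 2756 barcodes with at least 500 detected genes and at most 20% of their UMIs from mitochondrial genes, of 8842 deposited for that library and 28486 cells and spots in all 8 libraries of the series. They made up 3.37% of the kept barcodes (exact binomial 95% interval 2.73 to 4.12, counting error only). Another 39 barcodes met the gene rule but exceeded the mitochondrial limit. The barcodes were chosen by their measured UMIs of Slc10a2, Enpp7 and Cubn, so the levels of these genes are descriptions of the rule.

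The library came from digested small intestine of C57BL/6 and Lgr5-eGFP-ires-CreERT2 mice on the same background, the latter carrying a green fluorescent reporter under the control of the stem cell gene Lgr5. Live cells (50000) were sorted, with enrichment for LGR5+ stem cells (50000) and for CD31+ PDPN+ LYVE1+ lymphatic endothelial cells (20000 to 25000), so shares describe the sort and not the tissue. A library of large intestine was sorted in the same way, 2 libraries held passage 1 organoids (epithelial cultures grown from crypts, alone or in coculture, 16 wells pooled and 100000 epithelial cells sorted for each), and 4 Visium libraries were 10 µm cryosections, 2 technical duplicates for each tissue. With 1 library for each sorted tissue or culture, no difference has a replicate check, and no test was made. The ages, the number of animals and the stretch of small intestine sampled were not given in the sources used here, and the Lgr5 reporter marks the stem cells that were enriched, not the absorptive cells described here. None of the 93 barcodes held a UMI of the added GFP-PLUS feature, against 196 UMIs in the other barcodes with Epcam, the gene of a surface protein of all gut epithelium.

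Bile acids made in the liver help to digest fat, and most are recovered in the ileum, the last stretch of the small intestine. There the transporter Slc10a2 takes them up from the lumen, Fabp6 binds them inside the enterocyte, and Slc51a and Slc51b together pass them on toward the blood. The nuclear receptor Nr1h4 (FXR) senses them and turns on Fabp6, Slc51a, Slc51b and the hormone gene Fgf15, which lowers bile acid synthesis in the liver. Cubn and Amn form the receptor that takes up vitamin B12 in the ileum, and Enpp7 is a brush border enzyme that splits dietary sphingomyelin. Fat uptake itself, with Fabp1 and the apolipoproteins, is known mostly from the upper small intestine.

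All 93 barcodes held Epcam, and all 7 listed enterocyte markers were present, at a summed 20669 CPM (UMIs of a gene per 1000000 UMIs of its group) with a range of 1579 to 85689 over barcodes. The other 1778 kept barcodes with Epcam, the comparison used below unless another is named, had 2092 CPM of the same genes. The chosen barcodes held 2988 to 103875 UMIs (median 27263), close to the comparison (median 24269.5). Mitochondrial UMIs made up a median 11.1% in the chosen barcodes and 7.35% in the comparison. The rule sum ranged from 5 to 54 UMIs with a median of 12. It was 5 to 9 in 37 barcodes and 30 or more in 14.

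A barcode could meet the rule through any of its 3 genes. Slc10a2 was present without Enpp7 in 29 barcodes, both were present in 39, and Enpp7 was present without Slc10a2 in 25. All 3 genes had a UMI in 31 barcodes. Slc10a2 alone reached 5 UMIs in 43 barcodes, Enpp7 in 52 and Cubn in 32. These classes are called Slc10a2-only, double and Enpp7-only below. They were defined with rule genes and after values had been seen, so they serve as a description. Their median depths were close, at 28646 UMIs, 25351 UMIs and 27263 UMIs.

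**Figure D1:**
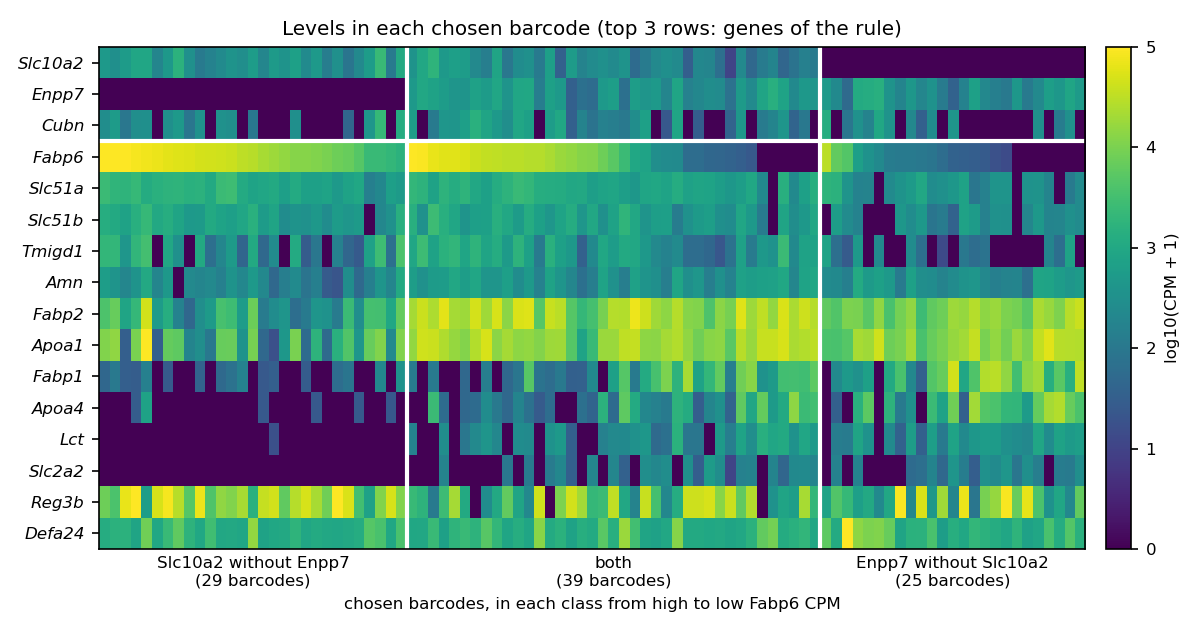
Levels of 16 genes (rows) in each of the 93 chosen barcodes (columns), as color for log10(CPM + 1), with the barcodes of each class ordered from high to low Fabp6. Fabp6 is above 0 in all the Slc10a2-only barcodes, while Fabp1, Apoa4 and Lct fill most Enpp7-only barcodes.

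The label given to these barcodes, ileal-type enterocytes, was matched by the Slc10a2-only barcodes and not by most of the Enpp7-only barcodes. Of the given markers that the rule did not use, Fabp6 ranged from 1619 to 131023 CPM over the Slc10a2-only barcodes (median 29461). Over the double barcodes it ranged from 0 to 96096 CPM (median 5223), and over the Enpp7-only barcodes from 0 to 30474 CPM (median 36.7). Every Slc10a2-only barcode had Fabp6 and 7 of the 25 Enpp7-only barcodes had none, although the ranges overlap. A single Enpp7-only barcode held 51.1% of the Fabp6 UMIs of its class. Tmigd1, a gene of a cell adhesion protein of the brush border, was at 491 CPM in the Slc10a2-only, 546 in the double and 51.0 in the Enpp7-only barcodes. The 93 barcodes are therefore called by their rule and not as a cell type.

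At the threshold the picture was mixed in the same way. The 7 barcodes just inside it, with a sum of 5, had Fabp6 from 0 to 45248 CPM (median 110) and Fabp1 at a median of 898 CPM. The 19 barcodes just outside it, with a sum of 4, had Fabp6 from 0 to 73612 CPM (median 700) and Fabp1 at a median of 114 CPM. Fabp6 exceeded 1000 CPM in 3 of the 7 and in 9 of the 19.

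Fabp6 (ENSMUSG00000020405) and Fabp1, the liver-type fatty acid binding protein, hardly shared barcodes. Their promoters are printed here with those of the bile acid transporters and Enpp7 because the results describe these genes class by class. Each line gives 250 bases before to 50 bases after a RefSeq transcription start (build GRCm38.p6), 5′ to 3′ on the gene's strand, and capitals mark matches on either strand to AGGTCA (the letters that nuclear receptors such as FXR read singly or as a pair), AGATAA (the motif of GATA factors) or CAAAGT (the core of the HNF4 motif).
Fabp6: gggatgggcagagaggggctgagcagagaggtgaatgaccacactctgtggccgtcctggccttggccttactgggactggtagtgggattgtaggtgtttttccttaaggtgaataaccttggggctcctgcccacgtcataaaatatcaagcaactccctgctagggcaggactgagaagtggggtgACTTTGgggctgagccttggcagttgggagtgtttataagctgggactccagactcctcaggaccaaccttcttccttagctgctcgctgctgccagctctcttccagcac
Slc10a2: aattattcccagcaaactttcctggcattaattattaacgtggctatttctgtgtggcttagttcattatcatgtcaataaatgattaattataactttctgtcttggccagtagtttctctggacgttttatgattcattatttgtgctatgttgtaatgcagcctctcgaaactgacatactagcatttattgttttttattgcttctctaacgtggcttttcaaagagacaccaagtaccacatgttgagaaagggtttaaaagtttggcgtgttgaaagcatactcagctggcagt
Slc51a: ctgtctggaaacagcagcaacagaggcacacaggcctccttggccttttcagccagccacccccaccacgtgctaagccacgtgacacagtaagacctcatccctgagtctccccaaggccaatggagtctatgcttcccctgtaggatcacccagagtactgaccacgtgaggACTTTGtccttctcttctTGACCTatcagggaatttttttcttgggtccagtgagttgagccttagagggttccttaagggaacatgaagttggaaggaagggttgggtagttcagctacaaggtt
Slc51b: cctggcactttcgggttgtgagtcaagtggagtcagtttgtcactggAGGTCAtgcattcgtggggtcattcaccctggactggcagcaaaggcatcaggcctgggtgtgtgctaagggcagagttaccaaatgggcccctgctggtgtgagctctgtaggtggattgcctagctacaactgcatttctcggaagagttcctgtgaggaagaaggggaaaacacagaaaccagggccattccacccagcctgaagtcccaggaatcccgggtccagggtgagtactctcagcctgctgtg
Fabp1: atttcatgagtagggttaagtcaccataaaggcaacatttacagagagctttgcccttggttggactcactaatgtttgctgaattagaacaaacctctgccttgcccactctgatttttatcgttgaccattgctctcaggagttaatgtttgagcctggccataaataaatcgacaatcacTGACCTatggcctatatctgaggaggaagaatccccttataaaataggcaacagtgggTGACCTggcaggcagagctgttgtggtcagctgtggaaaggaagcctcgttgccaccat
Enpp7: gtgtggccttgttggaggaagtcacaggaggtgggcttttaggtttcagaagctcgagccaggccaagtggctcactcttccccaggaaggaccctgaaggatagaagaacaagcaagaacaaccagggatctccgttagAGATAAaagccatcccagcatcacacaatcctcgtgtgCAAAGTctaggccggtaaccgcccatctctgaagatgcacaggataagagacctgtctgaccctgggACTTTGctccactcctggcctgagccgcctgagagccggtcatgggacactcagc
The positions are Fabp6 at chr11:43601513-43601812 (minus strand), Slc10a2 at chr8:5105238-5105537 (minus), Slc51a at chr16:32487830-32488129 (minus), Slc51b at chr9:65422724-65423023 (minus), Enpp7 at chr11:118987931-118988230 (plus) and Fabp1 at chr6:71199629-71199928 (plus).

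The Fabp6 window held 1 CAAAGT match, which began at position -61 from the start, and no AGGTCA. In Slc51a an AGGTCA match began at -58 and a CAAAGT match at -76, and in Slc51b an AGGTCA match began at -203. Fabp1 held AGGTCA at -67 and at -9, and Enpp7 held AGATAA at -110 and CAAAGT at -72 and -5. The Slc10a2 window held none of these letters. Of the 16 listed bile acid genes, 12 had a promoter in the table, and 9 of their 16 promoters held AGGTCA, against 16.3% of all 32851 promoters of this length. CAAAGT was in 7 of the 16 and 14.4% of all, and AGATAA in 3 of the 16 and 11.2% of all. The exact inverted repeat AGGTCANTGACCT was in none of the 16 and in 3 promoters of the table. A match describes letters and says nothing of binding, and the lack of an exact match does not mean that a site is absent.

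Of the 93 barcodes, 51 had at least 1000 CPM of Fabp6 and less of Fabp1, 29 had the reverse, 2 exceeded it for both and 11 for neither. Fabp6 alone exceeded the limit in all 29 Slc10a2-only barcodes. Among the double barcodes 19 had Fabp6 alone, 13 had Fabp1 alone and 2 had both. Among the Enpp7-only barcodes 3 had Fabp6 alone, 16 had Fabp1 alone and 6 had neither. The same limit in the comparison barcodes gave 83 with Fabp6 alone, 254 with Fabp1 alone and 1 with both.

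**Figure D2:**
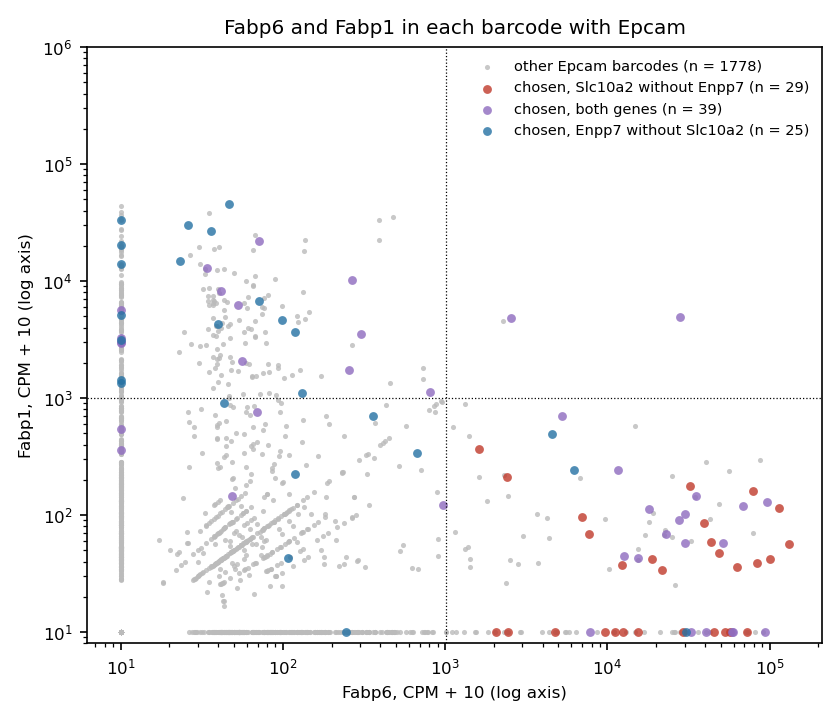
Fabp6 against Fabp1 in CPM + 10 for each chosen barcode, colored by class, and for the 1778 other Epcam barcodes in grey, on log axes, so that a level of 0 stands at 10 and the dotted lines mark 1000. There are 2 of the 93 chosen barcodes above 1000 CPM on both axes.

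Bile acid genes were higher in the chosen barcodes than in the comparison. Fabp6 was at 16980.3 CPM (exact Poisson 95% interval 16822 to 17140.2, counting error only) against 728 CPM (719.9 to 735), a log2 ratio of 4.54 (exact interval 4.52 to 4.56). By class it was at 36149.6, 13403 and 941 CPM in the Slc10a2-only, double and Enpp7-only barcodes. Against the 654 other Epcam barcodes with at least 5 UMIs of Alpi, Anpep, Apob and Sis, genes of absorptive cells, the log2 ratio was 3.67 (3.65 to 3.69). That group still held 11.9% UMIs of Paneth cell genes. Against the 341 barcodes in which those 4 genes made up at least 0.1% of UMIs, called strict absorptive barcodes, it was 2.81 (2.79 to 2.84). The strict group also held hormone cells, with hormone cell markers at up to 387335 CPM in a barcode. With mitochondrial UMIs limited to 10%, which left 33 chosen barcodes, the ratio against other absorptive barcodes was 4.35.

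Free RNA in the droplets was measured in cells that should lack these genes. Fabp6 was at 55.7 CPM in 272 B-type barcodes (median 2851 UMIs) and 64.4 CPM in 332 endothelial-type barcodes (median 3331.5 UMIs), both without Epcam. After thinning each barcode to 5000 UMIs, which left out 4 chosen and 257 comparison barcodes, 69.7% of 89 chosen barcodes had a Fabp6 UMI (exact binomial interval 59.0 to 79.0, 86.0% without thinning). The share was 22.1% (20.0 to 24.3) of 1521 comparison barcodes, 10.3% of 39 B-type (2.87 to 24.2) and 22.9% of 70 endothelial-type barcodes (13.7 to 34.4). Thinning left out 233 B-type and 262 endothelial-type barcodes. The shares without thinning were 52.0% in the comparison, 22.1% in B-type and 20.2% in endothelial-type barcodes, at the median depths given above. A single Fabp6 UMI in a comparison barcode is therefore not read as expression. Fabp6 reached 1000 CPM in 84 of the 1778 comparison barcodes, 6 of the endothelial-type and 1 of the B-type barcodes.

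Slc10a2, the uptake transporter that the rule used, was at 207 CPM in the chosen barcodes and 2.78 CPM in the comparison. The export pair was detected more widely than the rule genes. Slc51a was at 884 against 107 CPM (log2 ratio 3.04, 2.97 to 3.11), and 92.1% of thinned chosen barcodes held it against 22.9% (4.29% of endothelial-type barcodes). Slc51b was at 599.8 against 55.7 CPM (log2 ratio 3.43, 3.34 to 3.52). Unlike Fabp6, both stayed well above the comparison in the Enpp7-only barcodes, at 417 CPM for Slc51a and 292 CPM for Slc51b. Against strict absorptive barcodes the log2 ratios of all chosen barcodes shrank to 1.27 and 1.50. The Enpp7-only barcodes alone were not set against strict absorptive barcodes, and the comparison also holds stem, goblet and Paneth cells.

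The receptor gene Nr1h4 was at 163 CPM in the Slc10a2-only, 61.1 in the double and 28.9 in the Enpp7-only barcodes, with a log2 ratio of 1.47 (1.26 to 1.68) for all chosen barcodes against the comparison. Fgf15 was rare, with 44 UMIs in 17 chosen barcodes, but the comparison held only 6 UMIs. Its levels were 17.1 CPM (12.4 to 22.9) and 0.127 CPM (0.0467 to 0.277), a log2 ratio of 7.07 (5.83 to 8.59). The gene entered the comparison at the minimum of 50 UMIs only through the chosen barcodes. The pumps Abcc2 and Abcg2, which export conjugated compounds, had log2 ratios of 1.58 and 1.86, and Abcc3, a pump of the basal side, had -0.34. Against strict absorptive barcodes Abcc2 was level, at -0.03.

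Of the 16 listed bile acid genes, Slc10a2 was in the rule, 8 of the other 15 reached 50 UMIs over both groups, and 7 of those 8 were at least 2-fold higher. Over all 12718 genes that entered, 9.95% were at least 2-fold higher and 25.2% at least 2-fold lower, with a median log2 ratio of -0.29. In these ratios a count under 3 was set to 3. The median of the 8 was 2.45. Without Fgf15, 6 of 7 were higher and the median was 1.86. It was 0.60 over 7 genes against strict absorptive barcodes, where 3 were higher and none lower, while 4.38% of all 8907 genes were higher and 6.53% lower. These counts describe a list that matches the choice of barcodes and are not independent evidence.

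In the vitamin B12 list, the receptor subunit Amn was higher in the chosen barcodes (313 against 41.8 CPM, log2 ratio 2.90, 2.78 to 3.02), and at 1.57 (1.43 to 1.70) against strict absorptive barcodes. It was present in all classes, at 213, 411 and 282 CPM. Cubn, its partner and a rule gene, was at 128, 239 and 73.0 CPM. Tcn2, the carrier that takes the vitamin into the blood, had a log2 ratio of 1.87, whereas Cd320, the receptor for that carrier, was at -2.70. The endocytic adaptor Dab2 had 0 UMIs in the chosen barcodes and 4.16 CPM in the comparison. With that count set to 3, the direction of its ratio changed with the comparison chosen. Of the 12 listed genes, 9 entered without the rule gene, with 3 higher, 2 lower (Cd320 and Dab2) and a median of 0.37. Against strict absorptive barcodes 2 of 7 were higher and none lower, with a median of 0.39.

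Among sphingolipid genes, Asah2, the ceramidase that acts on the product of Enpp7, was higher in the chosen barcodes (log2 ratio 3.25, 3.12 to 3.37). Its level was 9.97 CPM in the Slc10a2-only, 483 in the double and 319.6 in the Enpp7-only barcodes. Asah2 was not part of the rule, and between the first and the last class its log2 ratio was -5.00 (-6.23 to -4.00). Of the 5 listed genes that entered beside Enpp7, 3 were at least 2-fold higher than the comparison and none lower. Against strict absorptive barcodes 1 of 5, Asah2 at 1.39 (1.25 to 1.53), was higher and none lower, with a median of 0.42. Between Slc10a2-only and Enpp7-only barcodes 4 of them entered and they differed in direction: Asah2 and Sgpl1, which breaks down a sphingolipid phosphate (-1.67, -2.15 to -1.22), were lower, Asah1, the ceramidase of lysosomes, was higher (1.82, 0.89 to 2.87) and Sptlc2 of sphingolipid synthesis was within 2-fold (0.58), with a median of -0.55. Asah1 was at -0.21 after thinning to 2000 UMIs, the value that equal counts in both classes give.

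Lists of the general machinery of absorptive cells were higher against all Epcam barcodes. All 12 genes of brush border structure were at least 2-fold higher (median 2.08), 17 of 18 brush border hydrolases (3.08) and 14 of 14 transporters of sugars and amino acids (2.46). Mep1a, a meprin protease subunit, led the hydrolases at 3.99, and Nt5e, with 1 UMI in the chosen barcodes, was lowest at -0.15 (-7.06 to 0.80 by its counts). Slc6a19, the main neutral amino acid transporter, led the transporters at 4.09, and Slc7a8 was lowest at 1.30. The comparison holds stem, goblet and Paneth cells, and against strict absorptive barcodes the medians were 0.94, 1.62 and 0.88, with 6 of 12, 11 of 17 and 5 of 14 genes higher. Slc7a8 was then at -0.21.

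Fat genes followed the same course, with 17 of 19 at least 2-fold higher, 1 lower and a median of 2.35 (0.69 against strict absorptive barcodes, with 7 of 18 higher). Apoa4, an apolipoprotein of chylomicrons, led at 4.27 (4.21 to 4.34), and the scavenger receptor gene Scarb1 was lowest. Scarb1 had 1 UMI in the chosen barcodes, so its log2 ratio of -1.13 (-8.03 to -0.21 by its counts) turned to 1.87 with barcodes thinned to 2000 UMIs. For xenobiotic metabolism 17 of 20 genes were higher and 1 was lower (median 1.94, and 0.29 with 3 of 20 higher and 1 lower against strict absorptive barcodes), from Cyp3a11, a drug-oxidizing cytochrome, at 4.74 down to Adh1 at -1.28. In the cholesterol list 5 of 12 were higher (median 0.85, and 0.44 with 1 of 12 higher against strict absorptive barcodes), led by Soat2, which esterifies cholesterol, at 2.35.

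Against other Epcam barcodes, further lists had lower medians than brush border, transporter and fat genes. Uptake of iron, calcium and folate, known from the upper small intestine, had 5 higher and 2 lower of 11, with a median of 0.53. Regional transcription factors had 6 higher and 1 lower of 22 (median 0.33), from Maf at 2.56 to Onecut2 at -1.59. Genes of the villus bottom had 6 higher and 2 lower of 10 (median 1.14, Gsdmd 2.77, Reg1 -2.36), and genes of the villus tip 7 higher of 13 (median 1.18, Pmp22 5.06, Egfr -0.46). Interferon and MHC class II genes had 5 higher and 1 lower of 15 (median 0.94, Ifit1 3.73), but 1 barcode held 72.6% of the Isg15 UMIs. Gbp2, with 1 UMI in the chosen barcodes that was set to 3, was lowest at -1.96 (-8.85 to -1.05 by its counts). Against strict absorptive barcodes Gbp2 was at 1.18, a direction that rests on that setting. Fasting and ketogenesis genes had 5 higher and 1 lower of 13 (median 0.67), with the glucose-releasing enzyme gene G6pc highest at 2.49.

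Most of these lists were near even against strict absorptive barcodes, where the median of all 8907 genes was -0.12. Of 9 iron, calcium and folate genes none was at least 2-fold higher and 1 was lower (median 0.05). Regional transcription factors had 1 higher and 2 lower of 17 (median -0.08). Villus bottom genes had 1 higher and 2 lower of 10 (median -0.24), with Gsdmd at 1.27, Dmbt1 at -1.98 and Reg1 at -4.44, and villus tip genes 3 higher and none lower of 12 (median 0.34). Fasting and ketogenesis genes had 2 higher and 1 lower of 11 (median -0.23), where G6pc was at 0.27. Interferon and MHC class II genes had 6 higher and none lower of 14 (median 0.91).

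**Figure D3:**
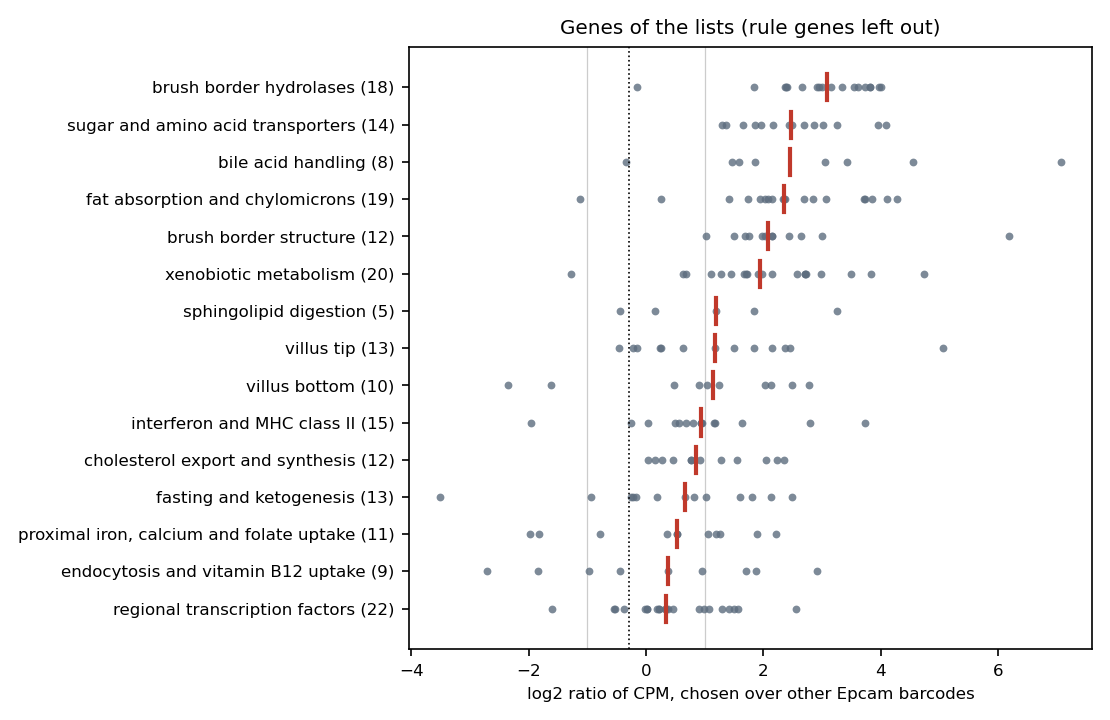
Log2 ratio of chosen over other Epcam barcodes for each gene of the 15 gene lists that entered (points, number in brackets) and the list median (red bar), with a dotted line at the median of all 12718 genes, -0.29, and grey lines at 2-fold lower and higher. Brush border hydrolases have the highest median, 3.08, and the rightmost point of the bile acid list is Fgf15, which reached the minimum of 50 UMIs only through the chosen barcodes.

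Genes were ranked where the higher group held 100 or more UMIs spread over 10 or more barcodes in each comparison. Among the 20 highest against other Epcam barcodes, Tmigd1 led with 389 against 5.37 CPM, a log2 ratio of 6.18 (5.98 to 6.39). It was followed by Plb1, a phospholipase of the brush border (5.91), the amino acid transporter Slc7a15 (5.62), Pdzk1, a scaffold that holds transporters in the brush border (5.49), Pmp22 and the surface enzyme gene Bst1 (4.97). The phosphate transporter Slc34a2 (4.93), the dicarboxylate transporter Slc13a2 (4.66) and Fabp6 were among the first 10. The rest were Fam151a, Cyp2c55, Dnase1, Vnn1, Slc5a8, Sprr2a3, Apoa1 and Slc5a4b, at 4.06 to 4.53, with Apoa4, Cyp3a11 and Slc6a19. Against strict absorptive barcodes Tmigd1 still led, at 4.48, with Plb1 at 3.83.

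The lowest genes belonged to other cells of the comparison. Cck, Gip, Ghrl and Chgb, genes of hormone-secreting cells, had log2 ratios of -7.12 (-9.40 to -5.57), -6.58 (-7.64 to -5.70), -6.02 (-12.91 to -5.13) and -6.28 (-7.90 to -5.06). Immunoglobulin genes (Iglc3 -7.17, Ighg1 -6.46, Iglv1 -6.23 with an interval of -13.12 to -5.34) and Fyb, Lrmp and Ccl9 made up the rest of the lowest 10. The 10 lowest against other absorptive barcodes were Cck, Gip, Ghrl, Chgb, Gcg, Sst, Pyy, Nts, Ighm and Ccl9. Against strict absorptive barcodes they were the hormone cell genes Cck (-9.28), Ghrl, Gip, Sst, Chgb, Gcg, Nts, Scg2 and Sct and the immunoglobulin gene Iglc1 (-4.92). Cck had 3 UMIs in the chosen barcodes and Ghrl and Iglv1 had 1 each. Markers of several other cell types were scarcer in the chosen barcodes than in the comparison. Tuft markers gave 12 UMIs with Il25 at 0, T, NK and ILC markers 1 UMI, endothelial markers 34 and fibroblast and muscle markers 21. Hormone cell markers gave 191 UMIs with Neurod1 and Tph1 at 0. Stem markers were at 129 CPM (0 to 1540 over barcodes) against 1355 CPM, and goblet markers at 1240 CPM (111 to 18418) against 25945. In strict absorptive barcodes stem markers were at 133 CPM and goblet markers at 503 CPM. Against these, 1 of 4 stem and 2 of 7 goblet markers that entered were at least 2-fold higher and none lower.

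Paneth cell genes were concentrated in few barcodes. Their 8 markers were all at least 2-fold lower than in the comparison, at a summed 18865 CPM against 114894. The median barcode had 2266 CPM (1073 to 525172 over barcodes), against a median of 3202 in the comparison and 2048 in strict absorptive barcodes. Against the latter all 8 markers were at least 2-fold higher in pooled CPM (median log2 ratio 2.62). One Enpp7-only barcode with 76830 UMIs held 23296 UMIs of Defa24, 83.2% of all in the chosen barcodes, beside 349 UMIs of Fabp6. Removing the barcodes with the highest doublet scores took 61 of 2756, among them 1 chosen barcode, and without the Paneth-rich barcode the Fabp6 ratio against other absorptive barcodes was 3.70. The Paneth cell genes Defa22, Defa23 and Lyz1 and the colipase gene Clps stood among the 10 highest genes against strict absorptive barcodes, with 87.5%, 89.2%, 85.7% and 90.3% of their UMIs in a single barcode. The other 6 were Tmigd1, Plb1, Slc7a15, Pmp22, Pdzk1 and Apoc2. Colonocyte markers summed to 622 CPM, above the 241 CPM of all other Epcam barcodes and below the 760 CPM of strict absorptive barcodes, with Car1 and Ly6g at 0. Against the latter none of the 2 that entered was at least 2-fold higher or lower (Car4 -0.30, Slc26a3 -0.32).

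The chosen barcodes also differed widely among themselves. Between Slc10a2-only and Enpp7-only barcodes, 6.57% of 3577 genes were at least 2-fold higher and 6.21% at least 2-fold lower, with a median log2 ratio of 0.17. Fat genes were lower as a group, with 11 of 17 at least 2-fold lower, none higher and a median of -1.49. Per barcode the 19 fat genes summed to a median of 5426 CPM (1622 to 167523) in the Slc10a2-only, 64954 (7701 to 121200) in the double and 41859 (10017 to 121352) in the Enpp7-only barcodes. The ranges overlap: 13 of the 29 Slc10a2-only barcodes exceeded the lowest Enpp7-only barcode, and 1 exceeded the median of that class.

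Fabp1 showed this most plainly. It was at 36.1 CPM (24.2 to 51.9) in the Slc10a2-only, 3129.9 (3024 to 3239) in the double and 11994 (11744 to 12249) in the Enpp7-only barcodes, a log2 ratio of -8.38 (-8.95 to -7.85) between the outer classes. Over barcodes its range was 0 to 359.8 CPM in the first class and 0 to 45299.5 in the last, with medians of 27.7 and 3114. Fabp2, the intestinal fatty acid binding protein, was highest in the double barcodes, at 1627, 23889 and 13438 CPM in that order of classes. Apoa1, the main protein of high-density lipoprotein, went from 3854 to 17295 and 14799 CPM. For Apoa4 the levels were 12.5, 1093 and 3698 CPM, and for Apoc2, which activates lipoprotein lipase, 7.47, 906 and 2167 CPM.

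Sugar digestion and uptake genes split alike. Lct, the lactase gene, had 1 UMI in the Slc10a2-only barcodes and was at 264 and 347 CPM in the others. Slc2a2, which passes sugars to the blood, had 0 UMIs in the first class, where 3 UMIs would be 3.74 CPM, and 133 and 169 CPM in the others. With its count set to 3, Slc2a2 was 45.3-fold lower than in the Enpp7-only barcodes, a value that does not cover counting error. Of 12 transporter genes 7 were at least 2-fold lower and 1 higher (median -1.40), and of 17 hydrolases 7 were lower and 2 higher (median -0.85). Xenobiotic genes were lower in 12 of 18 and higher in 1 (median -1.45), led by Cyp2b10, with 0 UMIs, 22.9 and 153 CPM. Structural genes of the brush border were close to even, with 1 higher and 1 lower of 12.

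Genes that were higher in the Slc10a2-only barcodes included Mep1a (534, 548 and 134 CPM by class) and the phospholipase gene Pla2g4c (1104, 744 and 6.89 CPM). Pla2g4c was patchy, with UMIs in 11 of 29, 21 of 39 and 5 of 25 barcodes. Its log2 ratio of 7.32 (6.10 to 8.95) was the highest of the named genes. Gsdmc2 of the pore-forming gasdermins was at 6.31 (4.75 to 8.60), its neighbor Gsdmc4 at 5.20, and the sulfite oxidase gene Suox at 5.58 (4.67 to 12.48). Gsdmc2 and Gsdmc4 are closely related copies, and how reads shared between them were assigned was not tested. Scd2, which makes unsaturated fatty acids, was at 5.51 (4.22 to 9.15), Fgfbp1 at 4.96 (3.65 to 8.61) and Cldn2, a tight junction gene, at 4.51. S100a6 was at 4.01 (3.26 to 4.87), with 44.5% of the UMIs of all chosen barcodes in 1 of them, and Cd9, a surface protein gene, at 3.43 (2.64 to 4.33). The lowest after the fat and sugar genes were the antimicrobial peptide gene Leap2 (-5.98, -12.88 to -5.07) and Dnase1 (-5.37, -9.02 to -4.07). Apoc3, an apolipoprotein gene, was at -5.07 (-5.63 to -4.56) and Defa22 at -5.05 (-5.28 to -4.82), but at -0.045 without the Paneth-rich barcode. The count was under 3 and was set to 3 for Suox, Scd2 and Fgfbp1 in the Enpp7-only and for Leap2 and Dnase1 in the Slc10a2-only barcodes.

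Part of the cholesterol list was higher in the Slc10a2-only barcodes. Of 9 that entered, 5 were at least 2-fold higher in Slc10a2-only than in Enpp7-only barcodes and 1 was lower (median 1.00). Hmgcs1, an early enzyme of sterol synthesis, was at 290.2, 166 and 49.6 CPM by class. Per barcode the 12 listed genes summed to medians of 985 CPM (475 to 1663), 859 (335 to 1963) and 681 (182 to 1793) in the 3 classes, whose ranges overlap widely.

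The Hox genes Hoxb5 to Hoxb9, which mark position along the gut, summed to 49 UMIs in 10 of the 29 Slc10a2-only barcodes and to 0 in the 39 double and the 25 Enpp7-only barcodes. The comparison held 628 UMIs in 194 of 1778 barcodes. A count of 0 allows up to 2.86 CPM in the double barcodes, against 61.0 CPM in the Slc10a2-only barcodes. The genes were grouped after their values were seen.

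Among the 89 chosen barcodes thinned to 5000 UMIs, the genes whose levels ran most closely with Fabp6 were ranked by Spearman's rho over 2747 genes with a UMI in at least 20% of them. Slc51a (0.66) and Phgr1 (0.65) led, followed by Mep1a (0.59), Slc51b (0.57), the sulfate transporter Slc13a1 (0.55), Tmigd1 (0.49), the guanylin gene Guca2a, Suox and Nr1h4 (0.48 each) and Gsdme (0.47). The lowest were Fabp1 (-0.70), Apoa4 and the retinol binding gene Rbp2 (-0.65 each) and Apoc2 (-0.62). Among the rule genes, Slc10a2 was at 0.58, Cubn at 0.33 and Enpp7 at -0.28. The points share 1 library and the rule that chose them, so these values describe these barcodes.

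Fabp6 was not confined to the chosen barcodes. It made up at least 0.5% of UMIs in 46 chosen barcodes (24 Slc10a2-only, 20 double and 2 Enpp7-only) and in 45 comparison barcodes. Those 45 held 86.7% of the Fabp6 UMIs of the comparison, and 15 of them had no UMI of a rule gene.

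The same rule also chose barcodes in the other single-cell libraries, and none of those held Enpp7. In sorted large intestine it chose 21 of 6188 kept barcodes (0.339%, 0.210 to 0.518), all with at least 5 Slc10a2 UMIs. Fabp6 exceeded 1000 CPM in 6 of the 21 and Fabp1 in none. Control organoids gave 32 of 540 (5.93%, 4.09 to 8.26) and cocultured organoids 20 of 1037 (1.93%, 1.18 to 2.96). The organoid barcodes had Slc10a2 at 174 and 103 CPM but no UMI of Fabp6, and Fabp1 at 2704 and 9374 CPM. The pairing of Slc10a2 with Fabp6 seen in the tissue library was therefore not found in organoids, where 3 UMIs of Fabp6 would be 1.01 and 1.51 CPM. The small and large intestine libraries shared 25 barcode sequences, none of them among the 93.

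**Figure D4:**
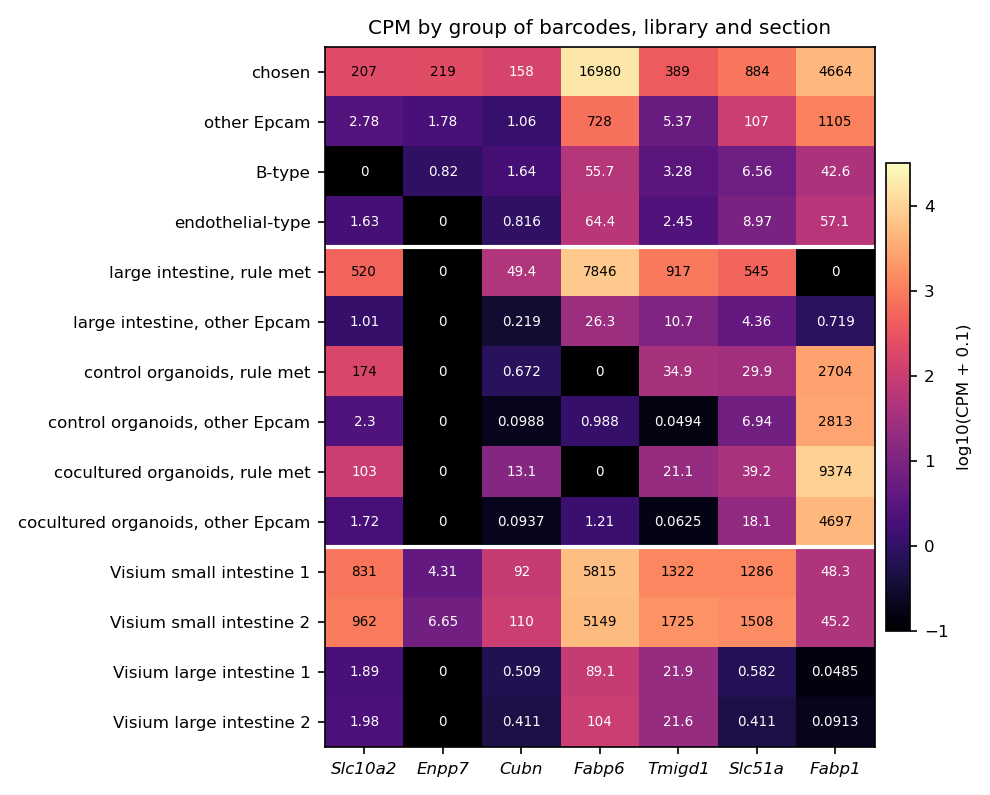
Pooled CPM (numbers in cells, color for log10(CPM + 0.1)) of 7 genes (columns) in groups of barcodes of the 4 single-cell libraries and in the 4 Visium sections (rows). Fabp6 is at 7846 CPM in the large intestine barcodes that met the rule and at 0 in the organoid barcodes that met it.

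Visium sections, which the rule did not use, gave the tissue level of these genes. A spot can hold several cells, and fewer cells of a type cannot be told apart from less RNA per cell. Fabp6 was at 5815 and 5149 CPM in the 2 sections of small intestine and at 89.1 and 104 CPM in those of large intestine, a log2 ratio of 5.83 with no overlap. Slc10a2 was at 831 and 962 CPM in small intestine, Tmigd1 at 1322 and 1725, and Slc51a at 1286 and 1508. Fabp1 was at 48.3 and 45.2 CPM there, beside 36.1 CPM in the Slc10a2-only and 11994 CPM in the Enpp7-only barcodes. Enpp7 was at 4.31 and 6.65 CPM, Lct at 0.534 and 0.665, and Slc2a2 at 0.287 and 0.233. Of the 20 genes named for the difference between Slc10a2-only and Enpp7-only barcodes, 17 lay nearer to the level of the Slc10a2-only barcodes in both sections, on the scale of log2(CPM + 1). The other 3 were Fabp6, Fgfbp1 and Defa22. These 20 genes were picked for their difference and by UMIs in the class where they are higher. The same count over all 3577 genes was not made, so 17 of 20 describes the named genes only. Pla2g4c, patchy among barcodes, was at 1936 and 2002 CPM.

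**Figure D5:**
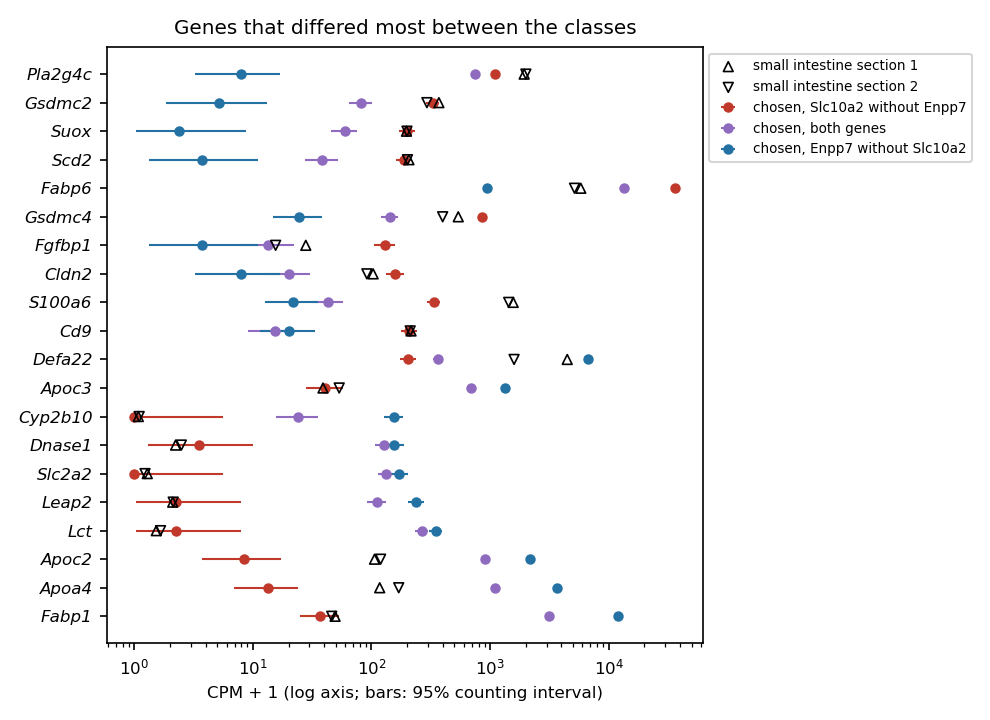
Pooled levels (CPM + 1 on a log axis) of the 20 genes named for the difference between classes (rows), as points with 95% counting intervals for the 3 classes of chosen barcodes and as open triangles for the 2 small intestine sections. Fabp1 is at 48.3 and 45.2 CPM in the sections and 36.1 CPM in the Slc10a2-only barcodes, and 17 of the 20 genes lie nearer to that class than to the Enpp7-only barcodes in both sections. That count was made for the named genes only.

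Within the small intestine sections, spots were thinned to 2000 UMIs and divided by whether they held a rule gene. Section 1 had 1192 spots with and 871 without, and section 2 had 1521 and 903. Fabp6 was higher in the spots with a rule gene in both sections, with log2 ratios of 1.42 and 1.50. Slc51a had log2 ratios of 1.58 and 1.66, and Tmigd1 2.29 and 2.12. Fabp6, Slc51a and Tmigd1 were thus higher, in both duplicates, in spots with a UMI of any rule gene. The rule genes were not split apart here. Enpp7 was far below Slc10a2 in these sections, as given above, so the values say little about spots with Enpp7. Whether the share of enterocytes in a spot played a part was not tested.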

How the data were processed

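RNA was measured in 8 mouse libraries. The authors deposited raw UMI counts per gene and barcode, made with Cell Ranger 6.0.1 for the single-cell and Space Ranger 1.2.1 for the Visium libraries, per the file headers, on mm10, per the submitters' processing notes. The files carry no normalization. The annotation release is not given in the sources used here. The small intestine library held 78482770 UMIs, the other single-cell libraries 46236011 to 142501907 and the Visium sections 24356162 to 43833127.

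Barcodes entered with 500 or more detected genes and no more than 20% of UMIs from mt- genes, and spots with 500 or more UMIs. Counts were summed over groups of barcodes and scaled to CPM. A gene entered a comparison with at least 50 UMIs over both groups, and counts under 3 were set to 3 in log2 ratios. Intervals (95%) are exact Poisson, exact conditional for ratios and Clopper-Pearson for shares, and cover counting error only, since the barcodes share 1 library. Shares and rank correlations used barcodes thinned to 5000 UMIs (spots 2000), the largest depth tried that kept 80% of the chosen and of the other Epcam barcodes. It left out most B-type and endothelial-type barcodes. Doublets were not removed in the main values: Scrublet called 0.218% of barcodes, which is too few to rely on, so removing the highest scores (0.8% per 1000 barcodes) was an alternative. The scripts were tested on simulated data.

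Besides members of the 15 gene lists and 15 marker lists, of which a selection is named, the text names the 20 highest and 10 lowest log2 ratios against other Epcam barcodes, the 10 highest and lowest against other and strict absorptive barcodes and between Slc10a2-only and Enpp7-only barcodes (at least 100 UMIs and 10 barcodes in the higher group, leaving out mt-, Rpl and Rps genes, sex genes and Gm and Rik models) and the 10 genes closest to Fabp6. The barcodes, lists and comparisons were chosen with earlier results of these data known. The split by Slc10a2 and Enpp7 and the strict absorptive comparison were added after values were seen. Most genes of the lists enter only the counts and medians and are not reported here by name. Promoters came from a RefSeq table. Python 3.11.15, numpy 2.4.6, scipy 1.17.1, pandas 2.3.3, scanpy 1.11.5 and matplotlib 3.10.9 were used.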

Additional observations from a re-analysis of the deposited data

How the results depend on the processing

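The 93 barcodes became 56 with a rule of 10 UMIs, 33 with a mitochondrial limit of 10% and 5 after thinning to 2000 UMIs, which cuts the rule sum by construction. The ratios and gene counts after thinning keep the 93 barcodes chosen at full depth. The 1265 genes at least 2-fold higher became 1962 and 8339 when genes entered with 20 UMIs or 1 UMI, and 390 against strict absorptive barcodes, a comparison added after values were seen. The 3207 lower genes became 2028 with the 10% limit, 1127 after thinning and 582 against strict absorptive barcodes. The bile acid list median of 2.45 was 2.02 with the 10% limit, 2.67 with the mean CPM of each barcode, 0.60 against strict absorptive barcodes and 1.86 without Fgf15, which was left out after values were seen.

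The Fabp6 log2 ratio of 3.67 against other absorptive barcodes ranged from 3.31 to 4.44. It was 4.44 with a rule of 3 UMIs, 3.52 with 10 UMIs, 4.35 with the 10% limit, 3.31 with the mean CPM of each barcode and also 3.31 after thinning. It was 3.59 without mitochondrial and ribosomal protein genes, 3.72 without the barcode richest in Fabp6 and 3.70 without the Paneth-rich barcode. The spot ratio of Fabp6 was 1.68 with 2 UMIs of a rule gene and 2.42 without thinning. Leaving out 1 section gave 5.72 to 5.94 for Fabp6 between tissues and 1.42 to 1.50 for the spots.

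Of 1030 recomputed ratios of named genes that were at least 2-fold, 1023 kept their sign and 32 fell under 2-fold. After thinning Scarb1 reversed to 1.87 and, between Slc10a2-only and Enpp7-only barcodes, Asah1 to -0.21, while Dab2 reversed to 0.79 with 3 Epcam UMIs in the comparison and 0.18 against strict absorptive barcodes. Against the latter, Abcc2 (-0.034), Slc7a8 (-0.21) and Gbp2 (1.18) also reversed. Scarb1, Dab2 and Gbp2 had at most 1 UMI in the chosen barcodes, so their reversed values rest on the count set in place of low counts. The thinned value of Asah1 is that of equal counts in both classes, so only the class totals set its sign. For Abcc2 and Slc7a8 the cause was not tested. The median of all genes moved from -0.29 to -0.55 with the mean CPM of each barcode, and to -0.10 after thinning, so ratios are to be read against it. No paired analysis was possible because each sorted tissue or culture has 1 library, and the numbers of the Visium sections only name technical duplicates in comparisons without a test. With 1 library, depth limits single genes: 3 UMIs are 3.74 CPM in the Slc10a2-only barcodes.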
